A study of Canis lupus familiaris with 2 samples.

Results

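Enzymes of glycolysis and the creatine kinase of heart mitochondria were read in the left superior fat pads of dogs given a lentivirus that overexpresses miR-206 or a control lentivirus. The set is made of all probe sets annotated to 6 genes, namely PFKM, PGAM2, ENO3, CKMT2, TPI1 and PGK1, and it is set beside the 5 array control probe sets for GAPDH. These 6 genes account for 7 of the 1628 probe sets of the deposited table, because CKMT2 has 2 probe sets and each of the others has 1. PFKM, PGAM2, ENO3 and CKMT2 are the muscle isoforms of their enzymes, and TPI1, PGK1 and GAPDH are expressed in most cells. The 6 genes were chosen with their values known, so that all 7 probe sets are listed as higher, beside 75.1% of the table, follows from the choice, and no test was made on them.

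The lenti-miR-206 group were mongrel dogs of either sex whose left superior fat pads were injected with lentivirus carrying miR-206, and the fat pads were taken 2 weeks after infection. The lenti-control group received lentivirus with a scrambled sequence, and its time is given in the methods of the study and not in the sample labels. Both groups were taken to be without atrial tachypacing, because the labels do not mention it, and all dogs of the in vivo study underwent left thoracotomy. For each group the RNA of 3 dogs was mixed and read on 1 Affymetrix canine array, so there is no replicate and the spread between dogs is unknown. The labels and methods used here give no age for the dogs that received lentivirus (those of the pacing experiment were adult), nor the promoter of the virus or the cells it reached.

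Glycolysis splits glucose into pyruvate in the cytosol and yields ATP and NADH. Several of its steps are carried by isoenzymes, of which one form predominates in heart and skeletal muscle and another in most other tissues. Creatine kinase of the sarcomeric mitochondria passes the phosphate of newly made ATP to creatine, and the phosphocreatine then carries it to the contractile proteins. Heart muscle burns mainly fatty acids but keeps a full set of glycolytic enzymes, and fat cells use glycolysis to supply glycerol phosphate and acetyl units for the synthesis of fat.

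The values are log2 intensities from RMA, by which background is removed, arrays are brought to the same distribution and the short probes of a set are merged into 1 number. They ran from 2.95 to 14.3. No listed probe set differed by less than 2-fold between the arrays, so only strongly differing probe sets were listed, and a gene outside this selection is not analysed here. Of the 1628 probe sets, 1223 were higher in the lenti-miR-206 pool, which is 75.1% of the table, and 405 were lower. The median of the log2 differences, taken as lenti-miR-206 minus lenti-control throughout, was 1.21 over all probe sets and 1.35 over the higher ones. The 13 listed probe sets for bacterial spike-in controls had log2 differences down to -1.17, with a median of -1.08. All 13 were lower and lay close to the 2-fold limit, and a control with a smaller difference would not be listed. The spike-in median used below therefore describes only the listed spike-in controls, and it may overstate the shift of all of them. The 5 GAPDH controls ran from 1.16 to 1.43, with a median of 1.31. Whether a gene with a difference inside this range turns lower depends on the GAPDH control taken, and the median is used below. An unchanged level is not shown for either kind of control, so directions are given below with both as a reference as well.

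CKMT2, the sarcomeric mitochondrial creatine kinase, had the largest difference of the 6 genes with both of its probe sets. The brighter one (of the s_at kind) read 11.05 (log2 intensity) in the lenti-miR-206 pool and 8.75 in the lenti-control pool. This is a log2 difference of 2.30, or 4.93-fold, and on the linear scale the intensities were 2122 and 430.2. The dimmer one had 9.05 in the lenti-miR-206 pool and 6.99 in the lenti-control pool, a log2 difference of 2.06 or 4.18-fold. The 2 probe sets are the only repeated reading of a member gene, and their log2 differences lay 0.24 apart. Fewer cells of a type and less RNA per cell cannot be told apart in such pooled tissue. CKM, CKB and the other listed genes of the creatine kinase system, 12 in all, are not in the selection, so CKMT2 cannot be set against its cytosolic partner here.

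The muscle isoforms of 3 glycolytic enzymes followed, in a narrow range. PGAM2, the muscle form of phosphoglycerate mutase, which moves the phosphate group of phosphoglycerate in the later part of the pathway, read 10.60 (log2 intensity) in the lenti-miR-206 pool and 8.86 in the lenti-control pool. Its log2 difference was 1.74, or 3.33-fold. PFKM, the muscle phosphofructokinase, catalyses the committed and most tightly regulated step of glycolysis. It had 11.15 in the lenti-miR-206 pool and 9.49 in the lenti-control pool, a log2 difference of 1.65 or 3.15-fold. ENO3, the muscle enolase, makes phosphoenolpyruvate. It had 10.19 in the lenti-miR-206 pool and 8.64 in the lenti-control pool, a log2 difference of 1.55 or 2.93-fold. These 3 differences lay within 1.55 and 1.74, a range smaller than the distance of the CKMT2 probe sets from each other.

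The enzymes expressed in most cells were higher too, by smaller differences. TPI1, triosephosphate isomerase, which interconverts the triose phosphates, read 7.81 (log2 intensity) in the lenti-miR-206 pool and 6.73 in the lenti-control pool. Its log2 difference of 1.08, or 2.12-fold, was the closest of the 6 genes to the smallest difference that the table lists. PGK1, phosphoglycerate kinase, which makes the first ATP of the pathway, had 10.37 in the lenti-miR-206 pool and 9.18 in the lenti-control pool, a log2 difference of 1.19 or 2.28-fold. Relative to the median of the GAPDH controls both turned lower, with -0.23 for TPI1 and -0.12 for PGK1. With the 3′ GAPDH control alone (1.16) as the reference, PGK1 stays higher. The higher value of TPI1 was above the median of all values in the table, 7.21.

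**Figure D1:**
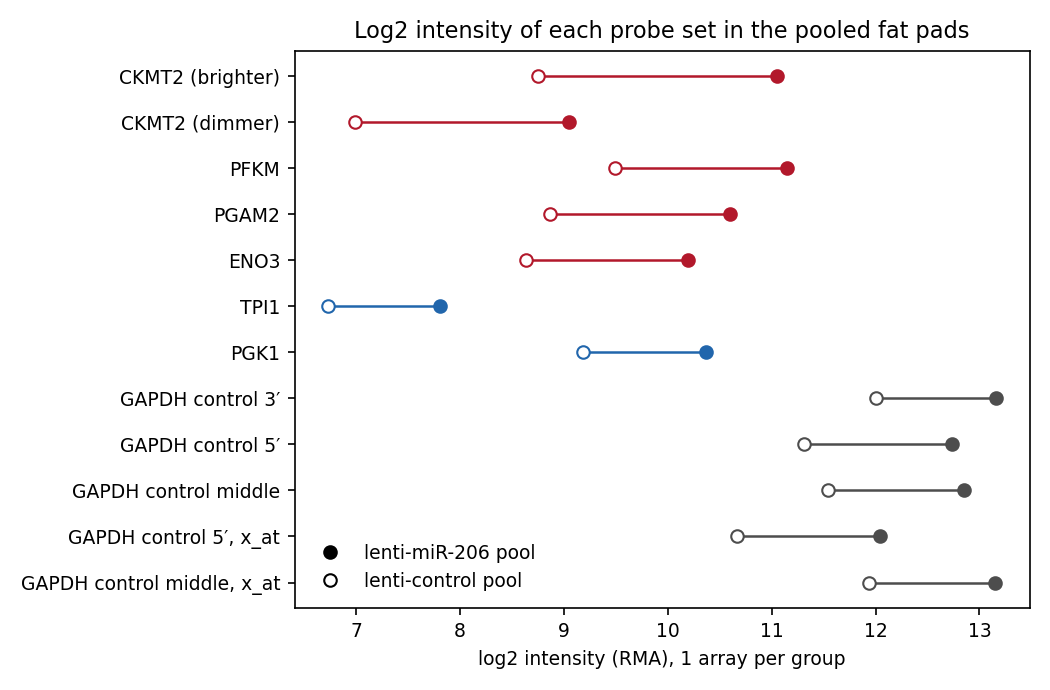
Log2 intensity (x axis) of the 7 probe sets of the 6 genes and of the 5 GAPDH control probe sets (y axis), with filled points for the lenti-miR-206 pool and open points for the lenti-control pool, 1 array each. Muscle isoforms are red, TPI1 and PGK1 blue and GAPDH grey, and the distance between the points is longest for the brighter CKMT2 probe set (2.30) and shortest for TPI1 (1.08), while intensities of different probe sets are not comparable with each other.

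GAPDH, which oxidizes glyceraldehyde phosphate and yields the NADH of glycolysis, was read by control probe sets placed along its transcript. The probe set at the 3′ end read 13.16 (log2 intensity) in the lenti-miR-206 pool and 12.01 in the lenti-control pool, a log2 difference of 1.16. The one in the middle had 12.85 in the lenti-miR-206 pool and 11.54 in the lenti-control pool, a log2 difference of 1.31, and the one at the 5′ end had 12.73 in the lenti-miR-206 pool and 11.31 in the lenti-control pool, a log2 difference of 1.43. The difference was therefore larger toward the 5′ end, by 0.27 between the ends. In the second series of GAPDH controls, whose probe sets can also hybridize to other transcripts, the 5′ probe set had 1.37 and the middle one 1.21, and the distance of 0.16 had the same direction. The 3′ value minus the 5′ value, which on these arrays is read as a sign of RNA integrity, was 0.43 in the lenti-miR-206 pool and 0.70 in the lenti-control pool. Its part in the differences of the other enzymes was not tested, since no source used here gives the place of their probes along the transcripts. The only other control for a dog transcript in the table, at the 5′ end of actin, had 10.96 in the lenti-miR-206 pool and 9.55 in the lenti-control pool, a log2 difference of 1.41. No 3′ probe set of the second GAPDH series and no middle or 3′ probe set of actin is in the selection. The trend along these transcripts is therefore known only in part.

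The muscle isoforms had larger differences than the broadly expressed enzymes. With the brightest probe set for each gene, the median log2 difference was 1.70 (3.24-fold) for the 4 muscle isoforms and 1.16 (2.23-fold) for TPI1, PGK1 and GAPDH. The median of the broadly expressed enzymes is the value of the 3′ GAPDH control, which lies between TPI1 and PGK1. The medians lay 0.54 apart, or 1.45-fold. The 5 probe sets of muscle isoforms ran from 1.55 to 2.30, and the 7 of broadly expressed enzymes from 1.08 to 1.43. These ranges did not overlap, but the genes were chosen with their values known, so this describes only the chosen genes. Of the 1628 probe sets of the table, 422 had a larger difference than ENO3 and 847 than PGK1. The nearest values, those of ENO3 and of the 5′ GAPDH control, were 0.13 apart, and ENO3 and PGK1 were 0.36 apart. Without CKMT2 the medians lay 0.50 apart, and without GAPDH 0.56.

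No replicate gives an error for these distances, and the only spread in the table is that between different probe sets of the same gene on the same arrays. For 196 genes more than 1 probe set was listed and all of these were higher. The range of their log2 differences had a median of 0.30 and a 90th percentile of 0.93. In 76.5% of the 196 genes this range was wider than the 0.13 between the nearest probe sets of the classes. Probe sets with differences under 2-fold are outside the table, so this spread is too narrow, and it holds nothing of the spread between dogs.

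**Figure D2:**
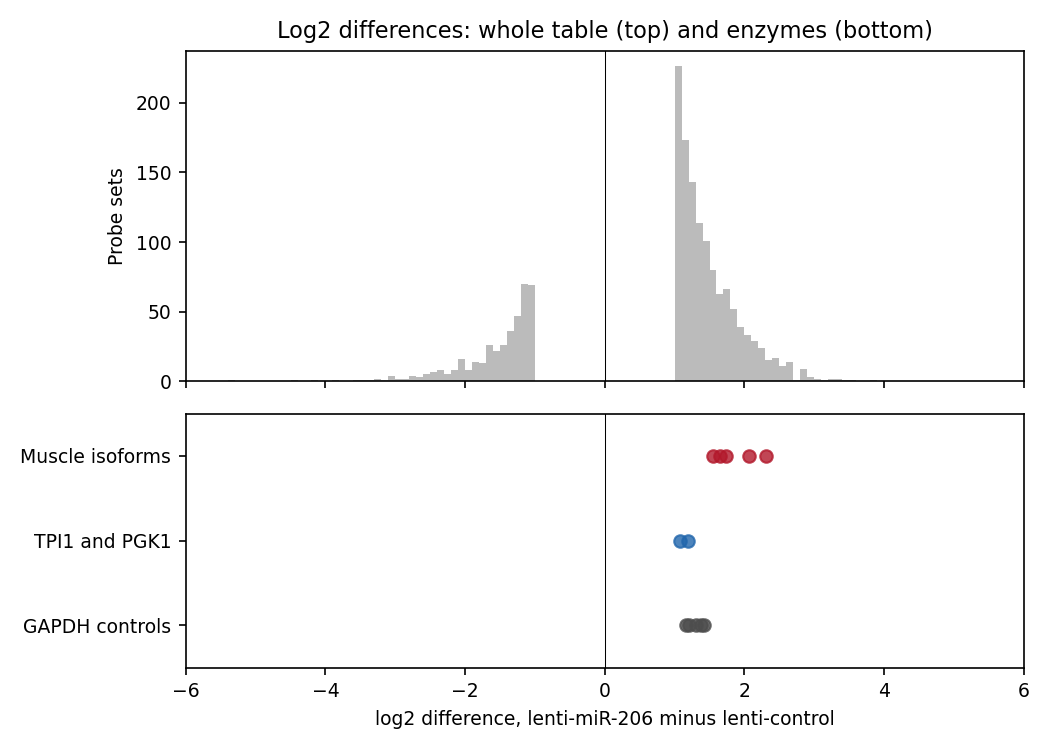
Number of probe sets (upper y axis) at each difference in log2 intensity (x axis, lenti-miR-206 minus lenti-control array) for all 1628 probe sets of the table, and below it each probe set of the muscle isoforms, of TPI1 and PGK1, and of the GAPDH controls. The gap between -1 and 1 is empty because the table lists only differences of at least 2-fold, the muscle isoforms lie between 1.55 and 2.30, and the other enzymes lie between 1.08 and 1.43 in the densest part of the higher probe sets, where relative to the GAPDH median TPI1 and PGK1 turn lower.

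Within the table the members stood at different places. Among the 1223 higher probe sets, 79 had a larger difference than the brighter CKMT2 probe set and 142 than the dimmer one. PGAM2 was exceeded by 294, PFKM by 344 and ENO3 by 422, so these 3 stood in the upper part of the higher probe sets but not at its end. PGK1 was exceeded by 847 and TPI1 by 1024. A difference of at least 3-fold higher was reached by 4 of the 7 probe sets, those of CKMT2, PGAM2 and PFKM, beside 24.5% of all probe sets. Since the genes were chosen from these same differences, the share is given as a description only. The 5 genes whose log2 difference was nearest to the median over the 6 genes, 1.60, were CDH2 (the N-cadherin of cell contacts), COMMD3, TRIM63 (a ubiquitin ligase of muscle), SLC25A12 (the mitochondrial aspartate and glutamate carrier) and RRAS2. Likeness was measured as the distance between log2 differences over the single contrast of the 2 arrays, which was at most 0.0043 for them.

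The choice of the reference level moved all members alike and kept their order. Relative to the median of the spike-in controls, the log2 differences were 3.38 and 3.14 for the CKMT2 probe sets, 2.81 for PGAM2, 2.73 for PFKM, 2.63 for ENO3, 2.26 for PGK1 and 2.16 for TPI1. Relative to the median of the GAPDH controls they were 0.996 and 0.76 for CKMT2, 0.43 for PGAM2, 0.35 for PFKM and 0.25 for ENO3. PGK1 and TPI1 were lower with this reference. A reference takes the same amount from every probe set, so these signs follow from the deposited differences. None of the 7 probe sets was 2-fold higher relative to the GAPDH median, but the brighter CKMT2 probe set was just under that limit. As GAPDH is itself an enzyme of this pathway, its reference gives the muscle isoforms relative to another glycolytic transcript.

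**Figure D3:**
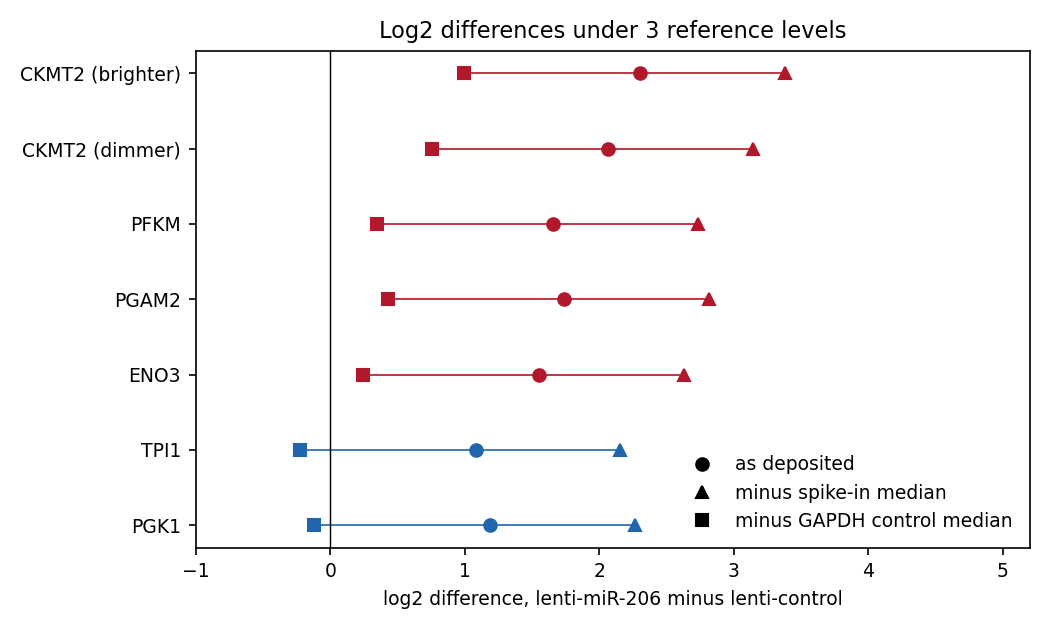
Difference in log2 intensity (x axis, lenti-miR-206 minus lenti-control array) for each of the 7 probe sets (y axis) as deposited (circles), after taking off the spike-in median of -1.08 (triangles) and after taking off the GAPDH control median of 1.31 (squares). Muscle isoforms (red) stay above 0 with each reference, and TPI1 and PGK1 (blue) lie below 0 with the GAPDH reference.

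Isoforms of the same enzyme could be set side by side only for phosphoglycerate mutase. PGAM1, the form of most tissues, read 9.02 (log2 intensity) in the lenti-miR-206 pool and 8.0 in the lenti-control pool, a log2 difference of 1.03 or 2.04-fold, which turns lower (-0.28) relative to the GAPDH controls. The muscle form PGAM2 exceeded it by 0.71 on the log2 scale, or 1.63-fold. Both are read by s_at probe sets, which can hybridize to several transcripts, and whether part of the signal of one form comes from the other was not tested. PFKL and PFKP, ENO1 and ENO2, and the other mitochondrial creatine kinase genes are not in the selection. Their differences are not analysed here, and a selection that leaves them out does not give them as unchanged.

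The other enzymes of glucose metabolism in the table went both ways. Of 130 further genes in the lists of glycolysis, the creatine kinase system, glycogen, pyruvate and lactate, NADH shuttles, gluconeogenesis and the pentose phosphate pathway, and regulators of muscle metabolism, 20 were in the selection, 13 higher (7 of which turn lower with the GAPDH reference) and 7 lower, beside 75.1% of all probe sets higher. Of the genes that turn, PPP1R3C, GOT2, SLC25A11 and PRKAG2 stay higher when the 3′ GAPDH control alone (1.16) is the reference. Of the 25 further glycolytic genes, PGAM1 was higher and PFKFB1 lower. PFKFB1, which makes and degrades the fructose bisphosphate that activates phosphofructokinase, had 5.53 in the lenti-miR-206 pool and 7.58 in the lenti-control pool, a log2 difference of -2.06. Its sign was opposite to that of PFKM, the enzyme that its product acts on, and PFKFB1 stayed lower with both references. It was dim in the lenti-miR-206 pool, below the median of all values, 7.21. Whether PFKFB1 and PFKM are read from the same cells of the pooled tissue was not tested.

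Of 22 genes of glycogen metabolism, 5 were in the selection, and 4 of these were higher, a share close to the 75.1% of all probe sets, although PPP1R3C was lower with the GAPDH reference. PGM1, phosphoglucomutase, had a log2 difference of 1.64, PHKB, a subunit of phosphorylase kinase, 1.47, and GYG1, the glycogenin on which a glycogen chain is started, 1.43 with its brighter and 1.36 with its dimmer probe set. PPP1R3C, which brings protein phosphatase to glycogen, had 1.26 and turns lower (-0.045) relative to the GAPDH controls. Its values of 5.21 in the lenti-miR-206 pool and 3.95 in the lenti-control pool are near the lowest of the table. PYGL, the glycogen phosphorylase named for liver, was lower with all 3 of its probe sets. The brightest had 7.31 in the lenti-miR-206 pool and 9.09 in the lenti-control pool, a log2 difference of -1.78, and the others had -1.88 and -1.64. PYGM, the muscle phosphorylase, is not in the selection.

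Genes of both routes by which NADH of glycolysis reaches mitochondria were in the selection. Of 7 genes of the malate and aspartate shuttle, which predominates in heart muscle, 4 were in the selection, each of them higher as deposited, beside 75.1% of all probe sets, with a median log2 difference of 1.41. They were SLC25A12 with 1.61, the cytosolic aspartate aminotransferase GOT1 with 1.56, its mitochondrial counterpart GOT2 with 1.27 and the oxoglutarate carrier SLC25A11 with 1.18, of which GOT2 (-0.039) and SLC25A11 (-0.13) turn lower relative to the GAPDH controls. The other probe set of GOT2, with 1.42, does not turn. Of 3 genes of the glycerol phosphate shuttle, GPD1, the cytosolic glycerol phosphate dehydrogenase that also supplies glycerol phosphate to fat synthesis, was the only one in the selection. It had 7.85 in the lenti-miR-206 pool and 9.87 in the lenti-control pool, a log2 difference of -2.01, and -2.43 with its other probe set.

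All 4 selected genes among the 13 of gluconeogenesis and the pentose phosphate pathway were lower, with both references as well. As deposited, 405 of the 1628 probe sets of the table were lower. TKT, the transketolase, had a log2 difference of -2.20, PCK1, the cytosolic phosphoenolpyruvate carboxykinase, -2.05, its mitochondrial form PCK2 -1.36 and FBP1, fructose bisphosphatase, -1.31. Both PCK2 and FBP1 were dim, with 5.30 and 5.40 in the lenti-miR-206 pool, against 6.66 and 6.71 in the lenti-control pool. FBP1 carries the reverse of the step of PFKM, and the differences of these 2 genes had opposite signs. Whether both are read from the same cells was not tested. Of 24 genes of glucose and lactate transport and of pyruvate, PDK3, a kinase that inhibits pyruvate dehydrogenase, was the only one in the selection, with 1.04, and it turns lower (-0.26) relative to the GAPDH controls. Of 24 regulators, PPARGC1A, a coactivator of mitochondrial genes, had 1.5, PRKAG2, a subunit of the AMP-activated kinase, 1.26, and MEF2C, a transcription factor of muscle genes, 1.06, and with the GAPDH reference PRKAG2 (-0.049) and MEF2C (-0.25) turn lower.

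**Figure D4:**
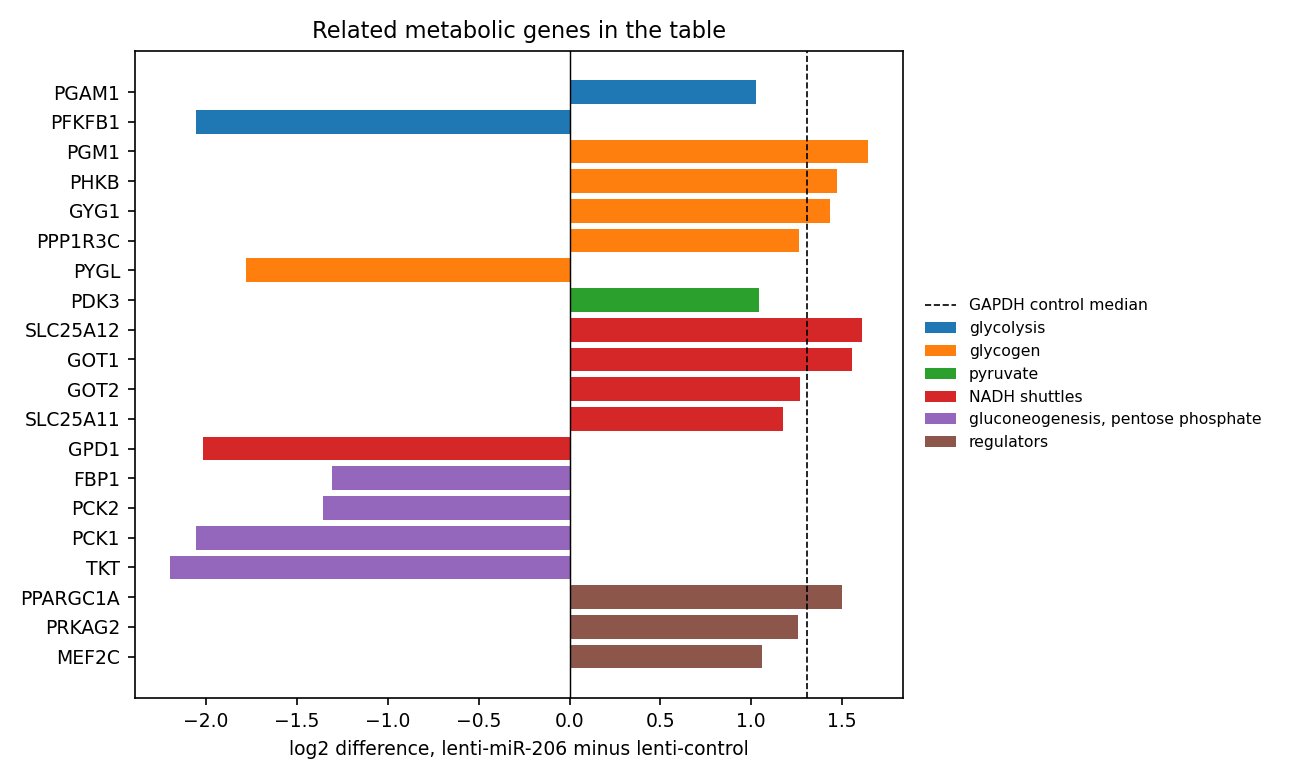
Difference in log2 intensity (bars from 0 on the x axis, lenti-miR-206 minus lenti-control array) for the 20 further metabolic genes in the table (y axis), coloured by list, with the brightest probe set for each gene. The dashed line is the median of the GAPDH controls (1.31), to the left of which PGAM1, PPP1R3C, PDK3, GOT2, SLC25A11, PRKAG2 and MEF2C turn lower when that median is the reference, and the lowest bar is that of TKT at -2.20.

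Markers of heart muscle were higher beside the muscle isoforms, 2 of them turning lower relative to the GAPDH controls. Of these, MYH7 had another probe set with a log2 difference of 1.81, which does not turn. Neither of the 2 markers turns with the 3′ GAPDH control alone (1.16) as the reference. Of 29 cardiomyocyte markers other than CKMT2, 19 were in the selection, each of them higher as deposited, beside 75.1% of all probe sets. Their log2 differences had a median of 1.65 (3.13-fold) and a range from 1.17 to 2.83. Their log2 intensities lay between 9.11 and 14.27 in the lenti-miR-206 pool and between 6.28 and 13.09 in the lenti-control pool, and the log2 of their summed linear intensity was 17.22 in the lenti-miR-206 pool and 15.73 in the lenti-control pool. The median of the 3 glycolytic muscle isoforms, 1.65, was at the same place. Both medians use the brightest probe set for each gene. The other probe sets of the cardiomyocyte markers had log2 differences from 1.09 to 2.45, most of them larger than with the brightest set. The place of the marker median therefore depends on the probe set chosen. NPPB, the natriuretic peptide of stretched heart muscle, had the largest difference of these cardiomyocyte markers, 2.83. Of 20 markers of skeletal muscle, which shares PFKM, PGAM2 and ENO3 with the heart, TNNT1 was in the selection, with 2.13. Of 13 markers of smooth muscle, 7 were in the selection, all higher with each reference, beside 75.1% of all probe sets higher as deposited. Their median was 1.64, and the smallest, SMTN, was only 0.016 above 0 relative to the GAPDH controls. Their log2 intensities lay between 6.81 and 11.14 in the lenti-miR-206 pool and between 5.10 and 9.50 in the lenti-control pool, and the log2 of their summed intensity was 12.45 in the lenti-miR-206 pool and 10.80 in the lenti-control pool.

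Markers of fat cells were lower, with 1 exception. The marker counts here stand beside 405 lower probe sets of the 1628 in the table and 75.1% higher ones, as deposited. Of 22 adipocyte markers, 12 were in the selection and 11 were lower, with a median of -1.76 and CIDEA at the low end with -2.87, and UCP1 was higher with 2.07. Their log2 intensities lay between 5.53 and 12.80 in the lenti-miR-206 pool and between 6.79 and 14.20 in the lenti-control pool, and the log2 of the summed intensity was 13.84 in the lenti-miR-206 pool and 15.60 in the lenti-control pool. Of these markers, ADIPOQ and FABP4 were bright in both pools, and the labels give the tissue as fat pads. For its miRNA sequencing the paper left out fat tissue as far as possible. Whether this was done for the arrays is not stated in the sources used here. Of 10 fibroblast markers 5 were in the selection, all lower, with a median of -1.31, and of 20 neuronal markers 6 of the 7 selected were lower, MAP1B being higher (1.24) and turning lower relative to the GAPDH controls. Of 9 glial markers 3 were in the selection and lower, as was 1 of 10 endothelial markers, while 2 of 9 macrophage markers were higher and turn lower relative to the GAPDH controls. No marker of red cells was in the selection. The part that the share of heart muscle and of fat in the pooled tissue had in the differences of the glycolytic enzymes was not tested, and with 1 array for each group an effect of miR-206 and a difference between the pieces of tissue cannot be told apart.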

How the data were processed

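The authors deposited log2 intensities of 2 Affymetrix canine arrays, 1 for each pool of 3 dogs, and RMA is the only tool that the submitters' processing notes name. Its version, the genome build and which arrays it normalized jointly were not given in the sources used here. RMA compresses the differences of dim and of very bright probe sets. Without detection calls a low value may be background, and the single array in each group limits the precision.

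Log2 differences (lenti-miR-206 minus lenti-control) and folds were computed in Python 3.11.15 (pandas 2.3.3, numpy 2.4.6), and figures were made in matplotlib 3.10.9. Gene symbols came from the platform annotation, updated through Entrez identifiers with the NCBI table of the assembly UU_Cfam_GSD_1.0, which gave 823 genes, while 22 probe sets had several symbols and 441 none. The 3 unannotated GAPDH controls were named by their identifiers. A gene was represented by its brightest probe set, that with the highest mean. Of the 7 probe sets of the 6 genes, 6 are s_at sets that can hybridize to several transcripts. No test between the groups was made. The code for the class medians was run on simulated tables with known values.

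The members, the gene lists, the alternatives and the rule for named genes were chosen with earlier results of these data known. The rule takes the 6 genes and GAPDH with each probe set, every metabolic list gene in the table, up to 3 markers at each end of a marker list, and the 5 genes nearest to the median of the 6. ADIPOQ, FABP4 and MAP1B were named for their role or as an exception. The alternatives were another probe set for a gene, leaving out probe sets that are dim or that are of the s_at or x_at kind, a 3-fold threshold, the spike-in or GAPDH reference, and classes without GAPDH or CKMT2. Protein and promoter sequences are not analysed here.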

Additional observations from a re-analysis of the deposited data

How the results depend on the processing

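No paired analysis was possible because each group has 1 array. A value counted as moved when it differed by more than 1.5-fold from that reported. The median of the muscle isoforms was 2.77 relative to the spike-in controls and 0.39 relative to the GAPDH controls, and that of the broadly expressed enzymes 2.23 and -0.15. The -0.15 is the distance of the 3′ GAPDH control from the GAPDH median, since this control is the class median. TPI1 (-0.23) and PGK1 (-0.12) turned lower relative to the GAPDH median. The distance between the class medians was 0.54 with both references, which take the same amount from each class and so cannot change it. It ran from 0.50 to 0.91 over all settings that gave it, and was 0.91 without s_at and x_at probe sets, where only CKMT2 and GAPDH remain. Another probe set for a gene could not move the muscle median, because only CKMT2 has more than 1 and both exceed the other isoforms. At 3-fold no broadly expressed enzyme is left, so the distance could not be computed. The count of 7 higher probe sets of the 6 genes became 1 without s_at and x_at probe sets, 4 at 3-fold and 5 above 0 relative to GAPDH. It stayed at 7 without dim probe sets. Over the whole table the 1223 higher probe sets became 798 without dim ones, 745 without s_at and x_at ones, 399 at 3-fold and 673 that were above 0 relative to GAPDH, of which 79 were at least 2-fold higher, and the 405 lower ones became 247 without s_at and x_at ones, 140 at 3-fold and 955 that were below 0 relative to GAPDH. The median of all probe sets was -0.10 relative to GAPDH and 2.28 relative to the spike-in controls. The probe set with the largest difference for each gene, a setting chosen after seeing the data, gave a distance of 0.51.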
